A study of Mus musculus with 12 samples.

Results

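Extracellular ATP and adenosine are handled by surface enzymes and read by receptors, and 8 genes of that system were followed across the series: the enzymes Entpd1, Nt5e and Ada, the adenosine receptors Adora2a and Adora2b, and the ATP receptors P2rx4, P2rx7 and P2ry2. They were picked by symbol, with no threshold on a value, as the rows of the expression matrix whose Ensembl identifier carries the symbol, and all 8 were found among 54104 Ensembl genes. The data were bulk RNA sequencing of 12 mouse libraries in 4 groups of 3, labelled Ly6C or Ly6G and spleen or tumor. The series is about myeloid-derived suppressor cells (MDSCs), immature myeloid cells that accumulate in animals bearing tumors, and Ly6G and Ly6C are the surface proteins by which their polymorphonuclear (PMN-MDSC) and monocytic (M-MDSC) kinds are usually told apart. Beyond that the labels gave a replicate number. The sources used here do not give strain, genotype, age, treatment, tumor model or sorting gate, no library was labelled as treated, and nothing states that replicates came from separate animals, so p-values measure the spread between these libraries, which may be technical.

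Levels are FPKM (fragments scaled to gene length and to mapped fragments), a scale per gene length on which genes can be compared. Changes are differences of log2(FPKM + 1) with their standard error from limma, a linear model fitted to all genes at once, which understate the change of genes near 0. A gene passed, and is said to have risen or fallen, at a Benjamini-Hochberg adjusted p under 0.05 over 13610 tested genes (at least 1 FPKM in at least 3 of 12 libraries). All 8 genes met that filter.

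As background, ATP that leaves stressed, dying or activated cells is a danger signal. CD39, encoded by Entpd1, removes phosphates from extracellular ATP and ADP to give AMP, and CD73, encoded by Nt5e, turns AMP into adenosine. Adenosine deaminase, encoded by Ada, converts adenosine to inosine. The receptors encoded by Adora2a and Adora2b couple to adenylyl cyclase and raise cyclic AMP, which restrains many responses of myeloid cells and lymphocytes, and the Adora2b product needs more adenosine than the other. The ion channels P2X4 and P2X7 (P2rx4, P2rx7) and the G protein-coupled receptor P2Y2 (P2ry2) respond to ATP itself. P2X7 is known for triggering the NLRP3 inflammasome and release of interleukin 1 beta, and P2Y2 for chemotaxis of neutrophils and other leukocytes.

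Cell type markers differed widely between tumor and spleen libraries, which touches every comparison between tissues. Summed FPKM of 20 pan-leukocyte genes was 4661 to 5774 in spleen and 205.5 to 896.7 in tumor, and 19 of the 20 fell in both labels. All 10 neutrophil markers fell in both labels, with sums of 61220 to 154800 in spleen and 1399 to 8526 in tumor. The epithelial keratins Krt8 and Krt18 both rose in both labels and were the only 2 of 8 epithelial markers to meet the filter. The sum of the 8 went from at most 1.23 in spleen to 445.7 to 1020 in tumor. Epcam was listed at 0 in all Ly6C tumor libraries. Of 8 tested fibroblast markers, 5 rose in Ly6C and 7 in Ly6G, and in spleen Dcn, Lum and Pdgfra were listed at 0 in the Ly6C libraries. Of 8 monocyte markers 7 fell in Ly6C, and 4 fell and 1 rose in Ly6G, and of 8 macrophage markers 3 and 6 fell. All 7 B cell, 5 tested T cell and 5 erythroid markers fell in both labels and were lower in Ly6C spleen than in Ly6G spleen. Of the smaller lists, all 3 tested eosinophil markers fell in both labels, and of 3 tested platelet markers 2 and 3 rose. Mast cell markers (1 of 3 tested fell in Ly6C, 2 rose and 1 fell in Ly6G) and endothelial markers (1 of 2 tested fell in Ly6C, 1 rose and 1 fell in Ly6G) were mixed. The labels themselves were only partly matched by their genes. Ly6g was 651 ± 63.6 FPKM in Ly6G spleen and 166 ± 40.0 in Ly6C spleen (SD, n = 3), while Ly6c2 was 214 ± 38.6 and 247 ± 24.8. In tumor Ly6g was 39.1 ± 13.02 in Ly6G and 12.97 ± 1.03 in Ly6C, and Ly6c2 was 6.69 ± 1.27 and 7.05 ± 0.976. The share of FPKM in 13 mitochondrial coding genes, which can reflect RNA quality, also moved with tissue without overlap, from 1.44% to 2.28% in spleen libraries and from 2.83% to 11.3% in tumor libraries, with the highest values in replicate 3 of both tumor groups. In bulk RNA, fewer cells of a type and less RNA per cell cannot be told apart, and the part of other cells and of RNA quality in the results was not tested.

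Libraries totalled 331681 to 449309 FPKM, with 10379 to 12337 genes at 1 FPKM or more. The direction of a change between tissues depended on what was held equal between libraries. The median log2 change of all tested genes was 0.27 in Ly6C and 0.43 in Ly6G on the deposited scale, and 3.14 and 2.25 after every library was rescaled to the same level of the pan-leukocyte genes. Under median-of-ratios factors, which set the typical gene equal, it was 0.05 in both. Of the genes that passed, 60.2% in Ly6C and 67.6% in Ly6G were higher in tumor on the deposited scale, 52.3% and 52.2% under median-of-ratios factors, 50.03% and 49.8% under quantile normalization, which makes all libraries' distributions equal, and 96.0% and 95.7% after the pan-leukocyte rescaling. On the TPM scale, where each library's FPKM sum to the same total, they were 57.2% and 76.1%, and 49.0% and 64.9% with the abundant neutrophil genes S100a8 and S100a9 left out of that sum. Values below are on the deposited scale unless another is named.

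Promoters are shown for the genes whose changes between tissues were largest, Adora2b, P2ry2 and Ada, as the 250 bases before the RefSeq start (RefSeq sequences, GRCm38.p6). Capitals mark the core of the hypoxia response element, ACGTG or GCGTG on either strand.
Adora2b, chr11:62248734-62248983, plus strand: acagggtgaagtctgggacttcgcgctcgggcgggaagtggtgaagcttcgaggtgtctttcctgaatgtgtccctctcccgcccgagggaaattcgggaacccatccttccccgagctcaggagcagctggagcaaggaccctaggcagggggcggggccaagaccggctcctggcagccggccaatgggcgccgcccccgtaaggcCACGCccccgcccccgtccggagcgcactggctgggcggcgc
P2ry2, chr7:101012054-101012303, minus strand: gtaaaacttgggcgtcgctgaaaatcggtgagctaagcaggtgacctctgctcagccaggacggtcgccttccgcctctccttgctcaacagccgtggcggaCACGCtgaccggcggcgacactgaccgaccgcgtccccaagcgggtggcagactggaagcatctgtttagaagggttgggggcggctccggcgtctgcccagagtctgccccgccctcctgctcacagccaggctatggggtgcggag
Ada, chr2:163750240-163750489, minus strand: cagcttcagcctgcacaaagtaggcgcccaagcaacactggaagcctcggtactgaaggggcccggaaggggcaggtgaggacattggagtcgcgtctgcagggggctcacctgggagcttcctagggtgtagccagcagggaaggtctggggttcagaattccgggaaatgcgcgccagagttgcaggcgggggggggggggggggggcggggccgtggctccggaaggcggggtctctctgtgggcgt
The Adora2b and P2ry2 windows held 1 such core each, 42 and 148 bases before the start, and the Ada window held none of these letters. Of 32851 RefSeq promoters of this length, 38.6% held a core, so its presence does not set these genes apart. ACGTG is also part of the E-box CACGTG and can share letters with TGACG, the core of the cyclic AMP response element, which none of these 3 windows held and 17.8% of all promoters did. GC boxes (GGGCGG, either strand) numbered 6 before Adora2b, 2 before P2ry2 and 1 before Ada, against at least 1 in 32.7% of all promoters. The observed to expected ratio of CpG was 0.727, 0.791 and 0.549 in the 3 windows, with a median of 0.373 over all promoters. None of the windows overlapped an exon in GENCODE M21, although the P2ry2 window lies inside the gene's longest annotated span. P2ry2 has another RefSeq start, at 101011998, whose window holds 3 cores and 4 GC boxes, overlaps annotated exons and is not shown. A match describes letters and shows neither binding nor use of a site. Among the other members with an entry (7 of 8, Adora2a has none), the first start of Entpd1 and that of Nt5e also had a hypoxia core, both starts of Entpd1 had 1 match to TGACG and P2rx4 had 2, the second start of Entpd1 had 2 matches to the PU.1 core GAGGAA (in 23.3% of all promoters), and the first start of P2rx7 had an AP-1 site (TGANTCA, in 6.75% of all promoters).

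**Figure D1:**
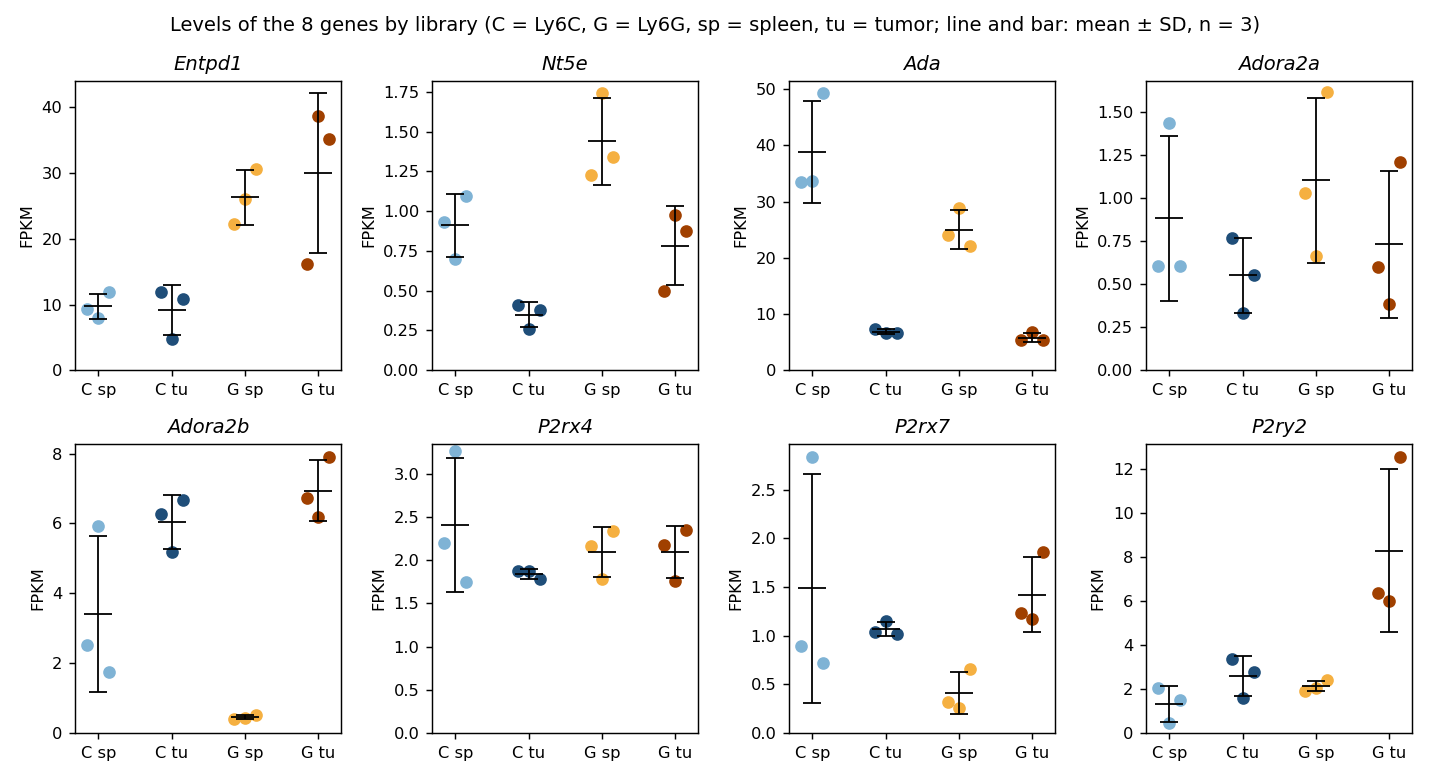
FPKM of the 8 genes in each of the 12 libraries on linear axes, with points for libraries and lines with bars for the mean ± SD of 3. Ada lies between 22.1 and 49.2 in spleen and between 5.33 and 7.33 in tumor, Adora2b is at or under 0.512 in Ly6G spleen and at or above 5.18 in all tumor libraries, and Entpd1 is higher in every Ly6G library than in the Ly6C libraries of the same tissue.

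On the deposited scale Entpd1, the ectonucleotidase that starts the breakdown of ATP, differed between labels, and its changes between tissues did not pass. It measured 9.25, 8.02 and 11.8 FPKM in Ly6C spleen and 11.8, 4.73 and 10.9 in Ly6C tumor. In Ly6G spleen it measured 22.3, 26.1 and 30.6, and in Ly6G tumor 16.1, 38.7 and 35.3. The Ly6G libraries lay above the Ly6C libraries of the same tissue without overlap, and the tissues overlapped within each label. Entpd1 was lower in Ly6C than in Ly6G by -1.36 ± 0.35 in spleen (adjusted p = 0.0121) and by -1.61 ± 0.35 in tumor (adjusted p = 0.0140). The difference in spleen passed under all 26 alternative settings. That in tumor was lost under 5 of 26 (adjusted p up to 0.102). Among them were the fits without Ly6G tumor replicate 2 (adjusted p = 0.0515) or replicate 3 (0.0584). After the pan-leukocyte rescaling it shrank to -0.58 (adjusted p = 0.0741). Between tissues the change was -0.15 in Ly6C (95% interval -0.91 to 0.61, adjusted p = 0.709) and 0.10 in Ly6G (-0.66 to 0.86, adjusted p = 0.799). Rescaled to pan-leukocyte genes, these changes were 3.23 and 2.67, and both passed in limma (adjusted p = 1.63e-10 and 9.87e-09). The lowest library in each tumor group, Ly6C tumor 2 and Ly6G tumor 1, also had the lowest neutrophil marker sum of its group, at 1399 and 4336. Neutrophil markers were lower in Ly6C than in Ly6G for 5 of 10 in spleen and 8 of 10 in tumor, and their part in the Entpd1 difference was not tested. Entpd1 (ENSMUSG00000048120) spans chromosome 19, 40612366 to 40741602 (GRCm38), and no annotated gene shares its exons.

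Nt5e, the enzyme that makes adenosine from AMP, was at or under 1.74 FPKM in every library and lower in tumor on the deposited scale. Its values were 0.931, 0.701 and 1.10 FPKM in Ly6C spleen against 0.410, 0.259 and 0.378 in Ly6C tumor. They were 1.23, 1.74 and 1.34 in Ly6G spleen against 0.500, 0.974 and 0.873 in Ly6G tumor. No tumor library reached the lowest spleen library of its label. Nt5e was at most 0.974 FPKM in tumor and met the filter on low values through spleen alone, which favours a fall. Nt5e fell by -0.50 ± 0.13 in Ly6C (adjusted p = 0.00457) and by -0.46 ± 0.13 in Ly6G (adjusted p = 0.00780), while the pan-leukocyte rescaling turned both changes upward, to 0.98 and 0.82. On the TPM scale the change in Ly6G was -0.28 and did not pass (adjusted p = 0.0754). Ly6C libraries lay below Ly6G libraries in both tissues without overlap, yet the differences of -0.35 and -0.39 did not pass (adjusted p = 0.0644 and 0.0659). Fragment counts could not be recovered from the matrix, so the counting error behind values near 1 FPKM is unknown. Within a library, the ratio of Nt5e to Entpd1 was 0.0936 ± 0.00670 in Ly6C spleen, 0.0414 ± 0.0117 in Ly6C tumor, 0.0553 ± 0.0114 in Ly6G spleen and 0.0270 ± 0.00347 in Ly6G tumor (SD, n = 3). CD39 transcript thus exceeded CD73 transcript in all 12 libraries per gene length. Nt5e (ENSMUSG00000032420) lies on chromosome 9, 88327197 to 88372092.

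Ada, which removes adenosine, fell between spleen and tumor by more than any other member. It measured 33.5, 33.7 and 49.2 FPKM in Ly6C spleen and 7.33, 6.56 and 6.66 in Ly6C tumor. In Ly6G spleen it measured 24.0, 28.8 and 22.1, and in Ly6G tumor 5.33, 6.74 and 5.33. The tissues were far apart in both labels, and the 6 tumor libraries formed a narrow range. The fall was -2.32 ± 0.16 in Ly6C (adjusted p = 9.77e-08) and -1.93 ± 0.16 in Ly6G (adjusted p = 5.11e-07). It passed under every alternative but the pan-leukocyte rescaling, under which Ada was higher in tumor by 1.22 in Ly6C (adjusted p = 0.000921) and by 0.55 in Ly6G (adjusted p = 0.106). Set against the leukocyte gene Ptprc (CD45) of the same library, Ada measured 1.16 ± 0.217 in Ly6C spleen, 1.93 ± 0.556 in Ly6C tumor, 0.624 ± 0.0709 in Ly6G spleen and 0.521 ± 0.160 in Ly6G tumor. Spleen and tumor overlapped in this ratio in Ly6G, while in Ly6C the highest spleen ratio was 1.29 and the lowest tumor ratio 1.45. In spleen, Ada was higher in Ly6C than in Ly6G by 0.60 ± 0.16 (adjusted p = 0.0156), without overlap. That call was lost under 5 of 26 alternatives (adjusted p up to 0.497). Among them were the fit without Ly6G spleen replicate 3 (adjusted p = 0.0553) and median-of-ratios factors (0.38, adjusted p = 0.164). On the TPM scale the difference was 0.91. In tumor the difference was 0.21 (-0.14 to 0.57, adjusted p = 0.395). Ada (ENSMUSG00000017697) is on the minus strand of chromosome 2, 163726584 to 163750239.

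**Figure D2:**
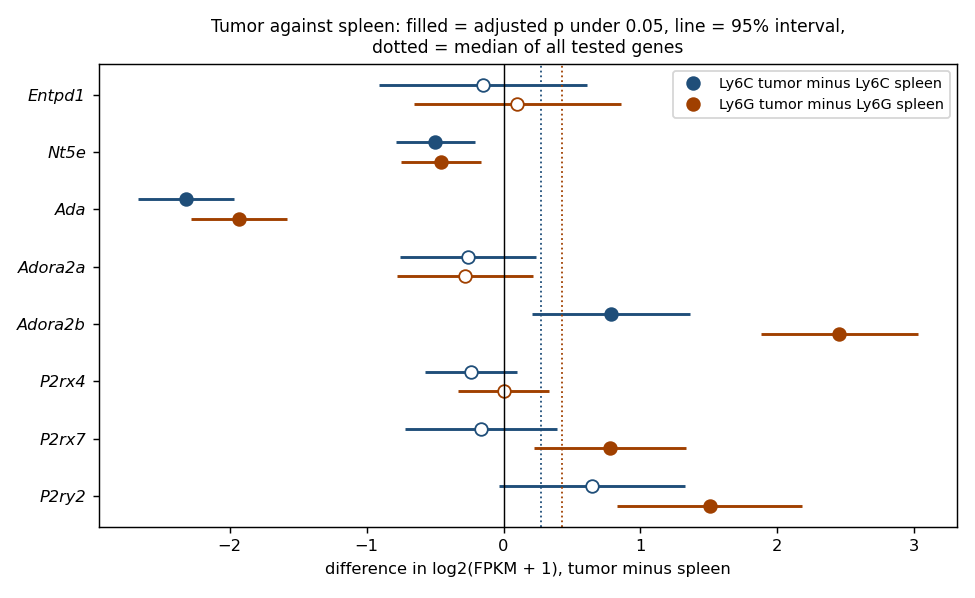
Change of each gene between tumor and spleen in log2(FPKM + 1), with points for the limma estimate, lines for its 95% interval and dotted lines for the median of all tested genes (0.27 in Ly6C, 0.43 in Ly6G). Ada and Nt5e lie below 0 and Adora2b above 0 in both labels, and P2ry2 and P2rx7 pass in Ly6G only; after the pan-leukocyte rescaling Ada and Nt5e lie above 0 as well.

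Of the adenosine receptors, Adora2a was low throughout. Its 3 values were 0.605, 1.44 and 0.604 FPKM in Ly6C spleen, 0.770, 0.332 and 0.550 in Ly6C tumor, 1.03, 0.664 and 1.61 in Ly6G spleen and 0.602, 0.384 and 1.21 in Ly6G tumor. All 4 groups overlapped. The changes between tissues, -0.26 in Ly6C (-0.76 to 0.24) and -0.28 in Ly6G (-0.78 to 0.21), did not pass (adjusted p = 0.310 and 0.271), and neither did the differences between labels, -0.16 in spleen and -0.14 in tumor (adjusted p = 0.652 and 0.720). Between tissues, Adora2a passed as lower in tumor under 1 of 25 alternatives in Ly6C and 2 of 25 in Ly6G. After the pan-leukocyte rescaling it passed as higher in tumor, by 1.39 in Ly6C and 0.84 in Ly6G. Adora2a (ENSMUSG00000020178) is on chromosome 10, 75316877 to 75334784.

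Adora2b, the receptor of low adenosine affinity, showed the largest rise of the 8 genes, and it was the 1 member whose tissue effect passed the test of the difference between labels. In Ly6G spleen it was nearly silent, at 0.402, 0.418 and 0.512 FPKM, and in Ly6G tumor it stood at 6.73, 6.19 and 7.91. In Ly6C spleen it ranged more widely, at 2.53, 5.93 and 1.74, and in Ly6C tumor it stood at 6.27, 5.18 and 6.66. The 6 tumor libraries were alike, the spleen groups did not overlap each other, and Ly6C spleen replicate 2 reached into the range of tumor. Adora2b rose by 2.45 ± 0.26 in Ly6G (adjusted p = 4.38e-06), a call that held under all 26 alternatives with values from 1.13 to 3.75. In Ly6C the rise was 0.79 ± 0.26 (adjusted p = 0.0166). Adora2b in Ly6C lost that call under 7 of 26 alternatives, which were those without Ly6C spleen replicate 1 (0.69, adjusted p = 0.0589), Ly6C spleen replicate 3 (0.50, adjusted p = 0.0751) or Ly6C tumor replicate 3 (0.72, adjusted p = 0.0522), that without both libraries of highest mitochondrial share (0.72, adjusted p = 0.0641), quantile normalization (0.50, adjusted p = 0.0550), equal sums without S100a8 and S100a9 (0.48, adjusted p = 0.104) and a fit of the 2 groups alone (adjusted p = 0.0536). The rise was smaller in Ly6C than in Ly6G by the interaction, -1.67 ± 0.37 (adjusted p = 0.00970), which disappeared after the pan-leukocyte rescaling (0.03, adjusted p = 0.962). In spleen, Adora2b was higher in Ly6C than in Ly6G by 1.49 ± 0.26 (adjusted p = 0.00167), and after that rescaling by 0.85 (adjusted p = 0.276). In tumor the difference between labels was -0.17 (-0.75 to 0.40, adjusted p = 0.698), and 0.88 (adjusted p = 0.0242) after the rescaling.

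The balance of the adenosine receptors within a library does not depend on scaling. The ratio of Adora2b to Adora2a was 0.446 ± 0.164 in Ly6G spleen, 3.73 ± 0.739 in Ly6C spleen, 11.96 ± 3.74 in Ly6C tumor and 11.3 ± 4.797 in Ly6G tumor (SD, n = 3). Adora2a transcript exceeded Adora2b in every Ly6G spleen library, and Adora2b exceeded Adora2a in every other library, by 2.87 times or more. Relative to Ptprc, Adora2b went from 0.0114 ± 0.00332 to 0.631 ± 0.224 in Ly6G and from 0.1003 ± 0.0571 to 1.66 ± 0.299 in Ly6C. Ptprc itself fell, so this ratio holds both changes. Adora2b (ENSMUSG00000018500) has 1 annotated transcript, on chromosome 11, 62248984 to 62266453.

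Of the ATP-gated channels, P2rx4 was nearly level on the deposited scale. It measured 2.20, 3.27 and 1.75 FPKM in Ly6C spleen, 1.88, 1.87 and 1.78 in Ly6C tumor, 2.16, 1.78 and 2.34 in Ly6G spleen and 2.17, 1.76 and 2.35 in Ly6G tumor. Every pair of groups overlapped. The change between tissues was -0.24 in Ly6C (-0.57 to 0.10, adjusted p = 0.175) and 0.00 in Ly6G (-0.33 to 0.34, adjusted p = 0.998). In Ly6C, P2rx4 passed as lower without Ly6C spleen replicate 3 (-0.38, adjusted p = 0.0381), under median-of-ratios factors (-0.41), under quantile normalization (-0.56) and with S100a8 and S100a9 out of the sum (-0.50). Under median-of-ratios factors P2rx4 was lower in Ly6G tumor (-0.35, adjusted p = 0.0277), as it was under quantile normalization (-0.57, adjusted p = 0.000991). After the pan-leukocyte rescaling it was higher in tumor in both labels, by 2.39 in Ly6C and 1.68 in Ly6G. Between labels P2rx4 differed by 0.12 in spleen and -0.12 in tumor (adjusted p = 0.625 and 0.637).

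P2rx7, the channel that opens the inflammasome route, was lowest in Ly6G spleen. Its values there were 0.322, 0.252 and 0.654 FPKM, and 1.23, 1.17 and 1.86 in Ly6G tumor. In Ly6C spleen it measured 0.896, 2.84 and 0.717, and in Ly6C tumor 1.04, 1.15 and 1.015. The Ly6G groups did not overlap, and 1 Ly6C spleen library, replicate 2, was the highest of all 12. It was also the only spleen library at 1 FPKM or more. P2rx7 thus met the filter only with tumor libraries, which favours a rise. P2rx7 rose by 0.78 ± 0.25 in Ly6G (adjusted p = 0.0146), a call lost under 4 of 25 alternatives. Among them were the fits without Ly6G tumor replicate 3 (0.65, adjusted p = 0.0568) or Ly6G spleen replicate 2 (0.70, adjusted p = 0.0502). Quantile normalization was another (0.20, adjusted p = 0.400). In Ly6C the change of -0.17 (-0.72 to 0.39) did not pass (adjusted p = 0.559), and after the pan-leukocyte rescaling it was 2.01. The difference of the tissue effects, -0.95 ± 0.36, did not pass (adjusted p = 0.0804). In spleen P2rx7 was higher in Ly6C by 0.73 ± 0.25 (adjusted p = 0.0477), but 18 of 25 alternatives lost that call, and without Ly6C spleen replicate 2 it was 0.37 (adjusted p = 0.109). In tumor the difference was -0.22 (adjusted p = 0.603). P2rx7 (ENSMUSG00000029468; chromosome 5, 122643911 to 122691432) and P2rx4 (ENSMUSG00000029470; chromosome 5, 122707544 to 122729738) lie 16111 bases apart on the plus strand, with only Gm10064 between them. An exon of P2rx7 overlaps the miRNA gene Mir8115.

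P2ry2, the ATP receptor tied to leukocyte chemotaxis, was highest in Ly6G tumor. It measured 6.35, 6.005 and 12.6 FPKM there and 1.93, 2.07 and 2.39 in Ly6G spleen. In Ly6C tumor it measured 3.36, 1.58 and 2.77, and in Ly6C spleen 2.06, 0.448 and 1.49. Every Ly6G tumor library was above all 9 others, and the remaining 3 groups overlapped. P2ry2 rose by 1.51 ± 0.31 in Ly6G (adjusted p = 0.000825), a call kept under all 26 alternatives with values from 0.87 to 3.37. The change in Ly6C, 0.65 ± 0.31, did not pass (adjusted p = 0.0746). It did pass under 5 of 26 alternatives, without Ly6C spleen replicate 1 (0.88, adjusted p = 0.0303), Ly6C tumor replicate 2 (0.87, adjusted p = 0.0348) or Ly6G tumor replicate 3 (adjusted p = 0.0428), with the replicate number as a block (adjusted p = 0.0338) and after the pan-leukocyte rescaling (3.09). The difference of the tissue effects, -0.86 ± 0.44, did not pass (adjusted p = 0.182) except with array weights (-1.07, adjusted p = 0.0327). In tumor P2ry2 was lower in Ly6C than in Ly6G by -1.35 ± 0.31 (adjusted p = 0.0186). That call was lost without Ly6G tumor replicate 3 (-1.04, adjusted p = 0.0665) or Ly6C tumor replicate 2 (-1.13, adjusted p = 0.0714) and without both libraries of highest mitochondrial share (-1.10, adjusted p = 0.135), and the difference was -0.51 after the pan-leukocyte rescaling (adjusted p = 0.149). In spleen it was -0.49 (-1.17 to 0.19, adjusted p = 0.268). P2ry2 (ENSMUSG00000032860) is on the minus strand of chromosome 7, 100996568 to 101012866.

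**Figure D3:**
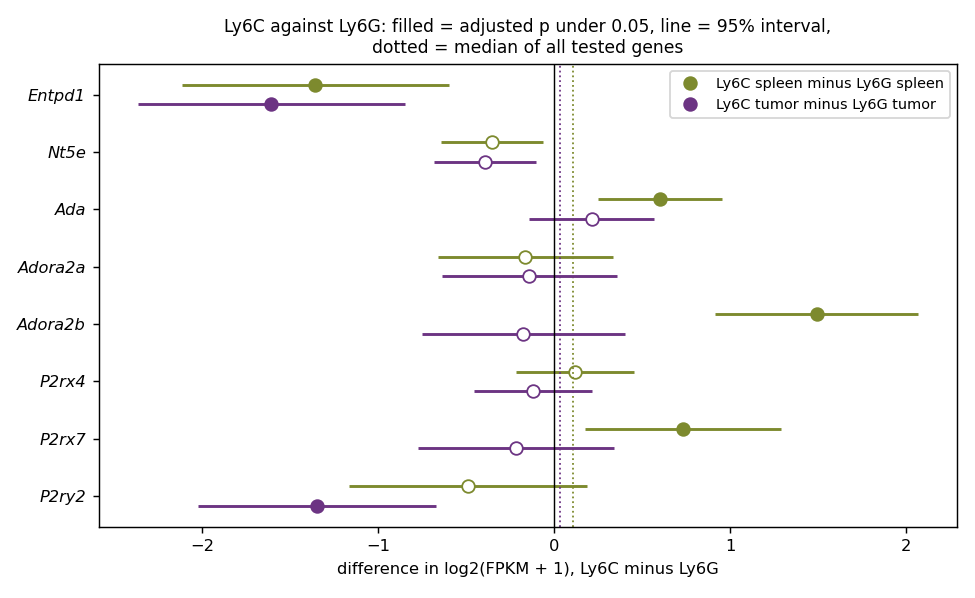
Difference of each gene between Ly6C and Ly6G in log2(FPKM + 1), with points for the limma estimate in spleen and in tumor, lines for its 95% interval and dotted lines for the median of all tested genes. Entpd1 lies below 0 in both tissues, at -1.36 and -1.61, and Adora2b lies at 1.49 in spleen and -0.17 in tumor; after the pan-leukocyte rescaling Adora2b lies above 0 in tumor.

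The counts of passing members are read against all tested genes. In Ly6C, 1 of 8 members rose (Adora2b) and 2 fell (Ada and Nt5e), where 46.2% of all genes rose and 30.5% fell. In Ly6G, 3 of 8 rose (Adora2b, P2ry2 and P2rx7) and 2 fell (Ada and Nt5e), where 51.5% of all genes rose and 24.7% fell. Nt5e met the filter through spleen alone, which favours a fall, so its place in these counts supports nothing. P2rx7 met it only with tumor libraries, which favours a rise, so its place among the rises supports nothing either. The median change of the 8 was -0.20 in Ly6C and 0.05 in Ly6G. In spleen, 3 of 8 were higher in Ly6C than in Ly6G (Ada, Adora2b and P2rx7) and 1 was lower (Entpd1), against 22.1% and 8.59% of all genes, and the median of the 8 was -0.02. In tumor, 2 of 8 were lower in Ly6C (Entpd1 and P2ry2), against 8.7% of all genes. No member was higher there in limma, at an adjusted p or at an unadjusted p under 0.05 (0 in each case), where 5.8% of all genes were. The interaction passed for 1 of 8 members, Adora2b, in the direction of a smaller effect in Ly6C, against 15.8% of all genes in that direction and 6.02% in the other. Among all passing genes, the share higher in Ly6C was 72.0% in spleen (47.1% under median-of-ratios factors and 90.5% on the TPM scale), 40.0% in tumor (53.7% and 6.99%) and 27.6% for the interaction (56.6% and 5.74%), and after the pan-leukocyte rescaling it was 59.6%, 98.2% and 97.8%. No test of the list was made.

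The 2 tissue comparisons share no library, whereas each shares libraries with the comparisons between labels. Side by side, the tissue changes in Ly6C and in Ly6G were -2.32 and -1.93 for Ada, -0.50 and -0.46 for Nt5e, 0.79 and 2.45 for Adora2b, and 0.65 and 1.51 for P2ry2. The enzyme that removes adenosine and the one that makes it both fell, the latter having met the filter through spleen alone. Adora2b rose in both labels, and P2ry2 and P2rx7 passed as higher in Ly6G, P2rx7 having met the filter only with tumor libraries. The pan-leukocyte rescaling turned both enzymes upward and left the direction of these receptors as it was.

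**Figure D4:**
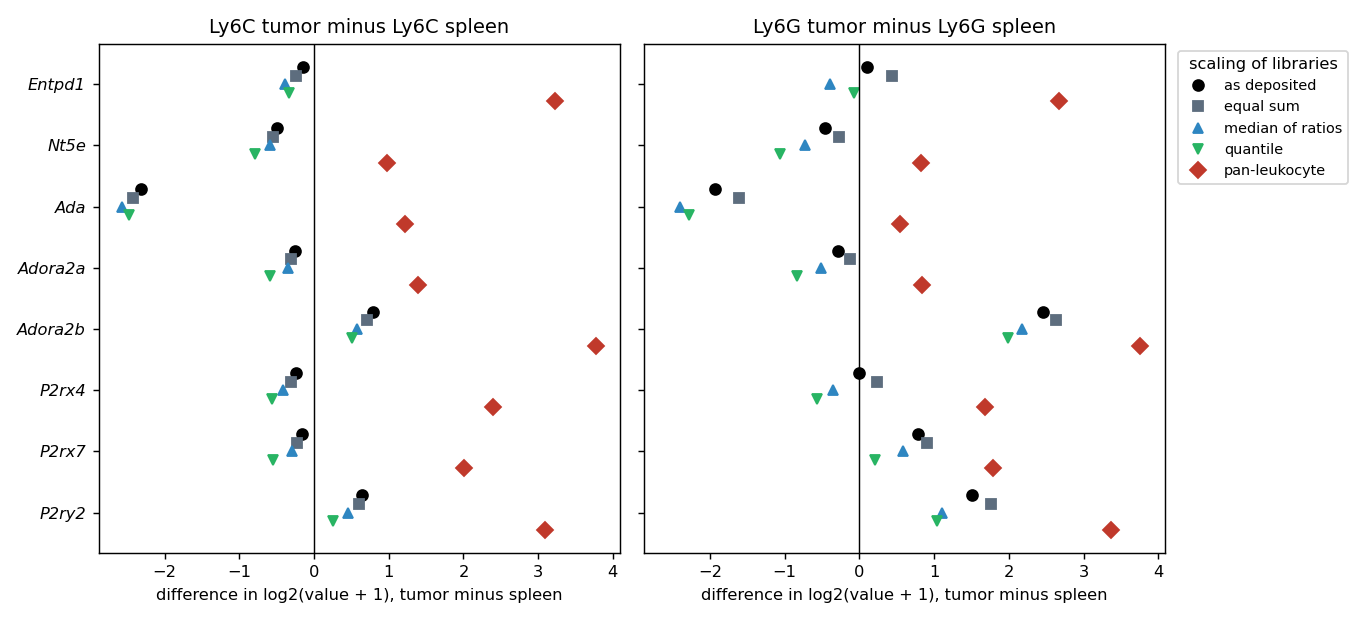
Change of the 8 genes between tumor and spleen in log2(value + 1), with 1 point for each of 5 ways of scaling the libraries. Adora2b and P2ry2 lie above 0 under all 5 in both labels, while Ada and Nt5e lie below 0 under 4 and above 0 under the pan-leukocyte rescaling.

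The other ectonucleotidases moved both ways between tissues. Of 14 such genes with a row, 10 were tested. In Ly6C 4 rose and 4 fell (median -0.14), against 46.2% and 30.5% of all genes. In Ly6G 4 rose and 5 fell (median -0.16), against 51.5% and 24.7% of all genes. Entpd2, a surface enzyme that stops mainly at ADP, rose in both labels. It was listed at 0 in all Ly6C spleen libraries and measured 4.39 ± 0.579 FPKM in Ly6C tumor, and in Ly6G it went from 0.0164 ± 0.0144 to 3.77 ± 0.222 (2.23 ± 0.10). Entpd2 thus met the filter through tumor alone, as did Entpd4 (at most 0.663 FPKM in spleen) and Enpp2 (at most 0.458), which favours a rise. Entpd7 and Acpp met it only with spleen libraries, which favours a fall. The counts therefore describe these genes and support nothing about ectonucleotidases as a group. Acpp, a phosphatase that can also make adenosine from AMP, fell from 12.8 ± 3.80 to 0.238 ± 0.0465 FPKM in Ly6C (-3.44 ± 0.23) and from 10.4 ± 3.07 to 1.04 ± 0.236 in Ly6G (-2.45 ± 0.23). Bst1, an NAD-consuming surface enzyme of myeloid cells, was the most abundant of the list, at 75.9 ± 9.94 FPKM in Ly6G spleen and 25.5 ± 4.99 in Ly6G tumor, and its fall became a rise of 1.09 after the pan-leukocyte rescaling. Between labels, Entpd3 was lower in Ly6C in spleen (-1.66 ± 0.21) and in tumor (-1.68 ± 0.21), the same direction as Entpd1, and Entpd5 was higher in Ly6C spleen (0.52 ± 0.10). After the pan-leukocyte rescaling, 9 of the 10 rose in each label, as did 12349 (Ly6C) and 12097 (Ly6G) of 13610 tested genes.

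Among genes of adenosine uptake and conversion, the 3 that rose in both labels were the transporters Slc29a1 and Slc29a2 and the enzyme Ahcy. Slc29a2 was at most 0.424 FPKM in spleen and met the filter through tumor alone, which favours a rise. Dpp4 was at most 0.0771 FPKM in tumor and met it through spleen alone, which favours a fall. Of 12 tested, 3 rose and 7 fell in Ly6C (median -0.53), against 46.2% and 30.5% of all genes. In Ly6G 3 rose and 6 fell (median -0.25), against 51.5% and 24.7% of all genes. After the pan-leukocyte rescaling 10 rose in each label, as did 12349 (Ly6C) and 12097 (Ly6G) of 13610 tested genes. The equilibrative transporter Slc29a1 (ENT1), which lets adenosine cross the membrane either way, rose from 5.12 ± 2.07 to 39.7 ± 3.22 FPKM in Ly6C (2.79 ± 0.27). Ahcy, which splits S-adenosylhomocysteine into adenosine and homocysteine, rose from 4.88 ± 0.266 to 30.9 ± 1.81 in Ly6G (2.44 ± 0.19). The concentrative transporter Slc28a2 fell from 21.3 ± 3.97 to 1.49 ± 0.430 in Ly6C (-3.17 ± 0.18) and from 38.3 ± 3.59 to 4.55 ± 1.11 in Ly6G (-2.84 ± 0.18), and its changes were -0.10 and -0.36 after the rescaling, neither passing (adjusted p = 0.749 and 0.251). Slc28a2 was also lower in Ly6C than in Ly6G in spleen (-0.83 ± 0.18) and in tumor (-1.15 ± 0.18).

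The enzymes after Ada went the same way as Ada. Pnp, which splits inosine, fell from 53.0 ± 15.2 to 12.9 ± 1.49 FPKM in Ly6C (-1.93 ± 0.24) and from 41.3 ± 11.04 to 12.3 ± 2.31 in Ly6G (-1.65 ± 0.24). Xdh, which makes uric acid, fell from 147 ± 17.5 to 44.0 ± 4.48 in Ly6C (-1.72 ± 0.17) and from 106 ± 26.3 to 56.2 ± 3.49 in Ly6G (-0.88 ± 0.17). Both turned upward after the pan-leukocyte rescaling, Pnp to 1.70 and 0.93 and Xdh to 2.004 and 1.79. The cytosolic nucleotidases Nt5c, Nt5c2 and Nt5c3 averaged 22.4, 10.9 and 13.7 FPKM over the 12 libraries. Nt5c did not pass between tissues (0.09 and 0.14), while Nt5c2 fell by -0.67 and -0.45 and Nt5c3 by -0.82 and -1.63, and both turned upward under that rescaling.

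Of 14 other adenosine and P2 receptors, 7 passed the filter on low values. A gene that passed it through spleen alone had to be lower in tumor, so the 6 of 7 that fell in each label (30.5% and 24.7% of all genes did) describe these genes and support nothing about the receptors as a group. P2ry1, an ADP receptor, fell most in Ly6C (-2.72 ± 0.17), from 6.30 ± 0.380 to 0.110 ± 0.0991 FPKM, and P2ry10, a lysophospholipid receptor of lymphocytes, most in Ly6G (-2.43 ± 0.13). The gene that passed in neither label was P2ry6, a UDP receptor (-0.66 and 0.18). After the pan-leukocyte rescaling, 2 rose and 2 fell in Ly6C (12349 and 511 of 13610 tested genes). In Ly6G 1 rose and 2 fell (12097 and 543 of 13610). In spleen, P2ry6 was higher in Ly6C (1.06 ± 0.37), a call lost under 15 alternatives (0.67, adjusted p = 0.172, without Ly6C spleen replicate 2), and P2ry13, another ADP receptor, was lower in Ly6C in spleen (-1.28 ± 0.14) and in tumor (-1.15 ± 0.14). B and T cell markers also fell in both labels, and the part of lymphocyte RNA in these falls was not tested.

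Of 9 genes of ATP release, 6 were tested. In Ly6C there were 2 rises and 1 fall (median -0.02), against 46.2% and 30.5% of all genes. In Ly6G there were 3 rises and 1 fall (median 0.72), against 51.5% and 24.7% of all genes. Gja1 was at most 0.248 FPKM in spleen and met the filter through tumor alone, which favours a rise. The counts describe these genes and support nothing about ATP release. Ank, a membrane protein that exports ATP and pyrophosphate, measured 2.99, 6.30 and 2.25 FPKM in Ly6C spleen against 149, 133 and 170 in Ly6C tumor. In Ly6G it measured 1.001, 1.008 and 1.48 in spleen against 125, 127 and 148 in tumor. Its rises, 5.05 ± 0.24 and 5.96 ± 0.24, were the largest of all the pathway genes. Slc17a9, the vesicular nucleotide transporter, fell from 17.9 ± 5.13 to 0.125 ± 0.0244 in Ly6C (-4.03 ± 0.20) and from 11.8 ± 2.81 to 0.386 ± 0.0848 in Ly6G (-3.19 ± 0.20). Both genes kept their direction and their call under all 26 alternatives in both labels. Slc17a9 was at most 0.479 FPKM in tumor and met the filter through spleen alone, which favours a fall. Ank was also higher in Ly6C spleen than in Ly6G spleen (1.08 ± 0.24). Lrrc8a, a volume-regulated anion channel subunit, was lower in Ly6C tumor than in Ly6G tumor (-0.36 ± 0.10), a difference that turned to 0.63 after the pan-leukocyte rescaling. Its call was lost under 7 of 25 alternatives, among them leaving out any 1 tumor library (adjusted p from 0.0546 to 0.116). Ank rose in the same libraries in which Krt8 reached 483 to 670 FPKM on average, and the part of non-leukocyte RNA in its rise was not tested.

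Of 17 tested genes of cyclic AMP signaling and its early targets, the route downstream of Adora2a and Adora2b, 11 rose and 4 fell in Ly6C (median 0.61) and 14 rose and 2 fell in Ly6G (median 1.49). Over all genes 46.2% rose and 30.5% fell in Ly6C, and 51.5% rose and 24.7% fell in Ly6G. After the pan-leukocyte rescaling 17 of 17 rose in each label, as did 12349 (Ly6C) and 12097 (Ly6G) of 13610 tested genes. Rapgef3, Crem and Nr4a3 were under 1 FPKM in every spleen library, and Adcy3, Adcy6, Nr4a2 and Pde4a in most of them. All of these met the filter only with tumor libraries, which favours a rise. The counts therefore describe the 17 genes and support nothing about the route. Adcy3, an adenylyl cyclase, rose from 0.721 ± 0.0861 to 22.7 ± 3.33 FPKM in Ly6C (3.78 ± 0.18) and from 0.839 ± 0.419 to 22.4 ± 3.92 in Ly6G (3.68 ± 0.18). Gnas, the stimulatory G protein subunit, rose by 1.78 ± 0.11 and 2.07 ± 0.11, and Prkaca, a catalytic subunit of protein kinase A, by 0.87 and 1.14. Prkar1a, a regulatory subunit that holds the kinase inactive, fell by -0.56 ± 0.09 in Ly6G, a change that turned to 2.10 after the pan-leukocyte rescaling. Among the early targets in Ly6C, the means of Nr4a2, Nr4a3 and Crem were higher in tumor and those of Nr4a1 and Per1 were not. Nr4a2, Nr4a3 and Crem met the filter only with tumor libraries, so this split supports nothing about the targets. Mean Nr4a2 went from 0.823 to 4.09 FPKM in Ly6C and from 0.198 to 5.06 in Ly6G. Mean Nr4a3 went from 0.166 to 3.28 and from 0.189 to 9.44, and mean Crem from 0.565 to 1.40 and from 0.778 to 2.06. In Ly6G the mean of each of these genes was higher in tumor. Nr4a1, an orphan nuclear receptor, measured 99.5, 178 and 60.1 FPKM in Ly6C spleen and 46.2, 26.7 and 31.8 in Ly6C tumor, a fall of -1.56 ± 0.42, which turned to 2.14 after that rescaling. In Ly6G, Nr4a1 measured 35.1, 20.9 and 64.9 in spleen and 93.2, 110 and 81.0 in tumor, a rise of 1.35 ± 0.42. The clock gene Per1 rose in Ly6G by 1.75, from 11.6 ± 3.04 to 40.4 ± 4.32, and its change of 0.04 in Ly6C did not pass (adjusted p = 0.897), with a difference between labels of -1.71 (adjusted p = 0.00521). In tumor, Gnas was higher in Ly6C than in Ly6G (0.42 ± 0.11) and Nr4a1 lower (-1.44 ± 0.42), calls lost under 9 and 12 alternatives. The call for Gnas was lost without any 1 of the 3 Ly6C tumor libraries or replicate 2 or 3 of Ly6G tumor (adjusted p from 0.0660 to 0.0949), and that for Nr4a1 without any 1 tumor library (0.0556 to 0.126). In spleen, Nr4a1 was higher in Ly6C (1.47 ± 0.42) and Adcy6 lower (-0.51 ± 0.13). The call for Nr4a1 was lost under 6 of 26 alternatives (adjusted p up to 0.107). Among them were the fits without Ly6C spleen replicate 2 (1.07, adjusted p = 0.0797), Ly6G spleen replicate 1 (1.44, 0.0554) or Ly6G spleen replicate 2 (1.08, 0.0795).

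Genes of the P2X7 output went in opposite directions at different steps. Of 9 tested, 4 rose and 2 fell in Ly6C (median 0.28), against 46.2% and 30.5% of all genes. In Ly6G 3 rose and 4 fell (median -0.16), against 51.5% and 24.7% of all genes. After the pan-leukocyte rescaling 8 of 9 rose in each label, as did 12349 (Ly6C) and 12097 (Ly6G) of 13610 tested genes. Il1b, the cytokine released on P2X7 activation, measured 21.8, 35.2 and 48.9 FPKM in Ly6C spleen and 331, 206 and 285 in Ly6C tumor (2.97 ± 0.39). In Ly6G it measured 263, 278 and 683 in spleen and 720, 1247 and 831 in tumor (1.30 ± 0.39). Nlrp3, the sensor, rose most in Ly6G (1.97 ± 0.35), from 9.92 ± 5.13 to 39.4 ± 6.997, and rose by 1.008 ± 0.35 in Ly6C. Pycard, the adaptor ASC that links the sensor to caspase 1, fell by -2.48 ± 0.17 in Ly6C and by -2.46 ± 0.17 in Ly6G, changes that became 0.59 and -0.32 after the pan-leukocyte rescaling. Casp1 averaged 28.8 FPKM over all libraries and rose in Ly6C by 0.54, while its change of -0.16 in Ly6G did not pass, nor did the difference of 0.70 (adjusted p = 0.123). Gsdmd, the pore through which the cytokine leaves, fell from 31.2 ± 2.73 to 12.8 ± 1.16 in Ly6C and from 36.6 ± 2.98 to 13.8 ± 0.222 in Ly6G, and turned upward under the rescaling. Il1b was lower in Ly6C than in Ly6G in spleen (-3.42 ± 0.39) and in tumor (-1.75 ± 0.39). The call in tumor was lost under 4 of 26 alternatives (adjusted p up to 0.127). Among them were the fits without replicate 2 of Ly6C tumor (adjusted p = 0.0634) or of Ly6G tumor (0.0550). Mlkl, an effector of necroptosis, was higher in Ly6C spleen (1.23 ± 0.15).

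**Figure D5:**
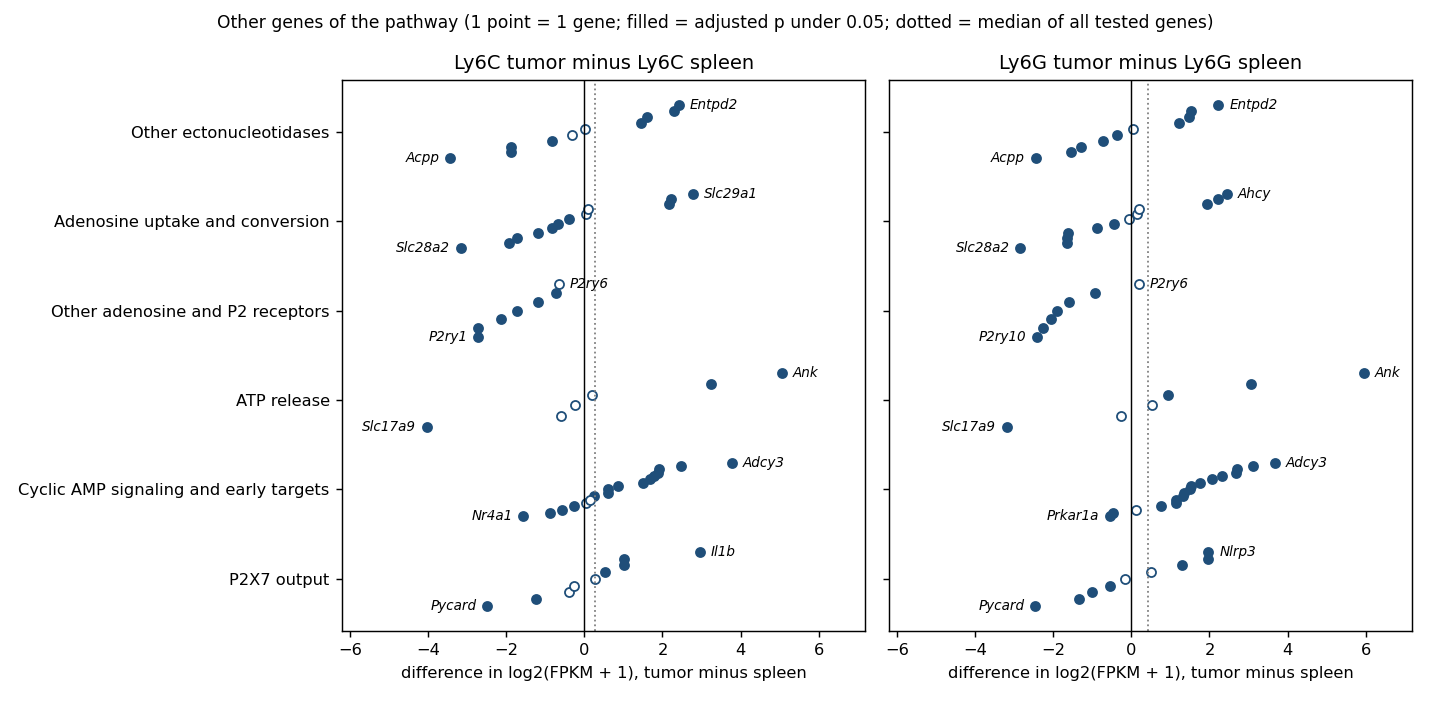
Change between tumor and spleen in log2(FPKM + 1) for the tested genes of 6 lists of other pathway genes, with 1 point for each gene and a dotted line at the median of all tested genes. Ank (5.05 and 5.96) and Slc17a9 (-4.03 and -3.19) are the ends of the ATP release list, and 6 of 7 other receptors lie below 0 and passed; after the pan-leukocyte rescaling most genes of 5 lists lie above 0.

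Within groups, several members varied together. Ly6C spleen replicate 2 had the highest Adora2b, P2rx7, P2rx4 and Adora2a of its group and the lowest P2ry2. The same library had the highest monocyte marker sum of its group, 864 FPKM against 539.4 and 420, and the lowest neutrophil sum, 61220 against 76910 and 96440. As a description over 12 libraries, deviations from group means had a Pearson r of 0.93 for P2rx4 and P2rx7, 0.91 for Adora2b and P2rx7 and 0.88 for Adora2b and P2rx4. Ly6C spleen had the largest SD of each of these genes, so its replicate 2 weighs heavily in these r, which were not computed without it. Of 8 monocyte markers, 5 were higher in Ly6C spleen than in Ly6G spleen, as were Adora2b and P2rx7. The part of cell composition in these differences was not tested.

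The genes most like each member over the 12 libraries are given as a description, since libraries of a group share their source. Ada was most like Flna (Pearson r = 0.995), Zmpste24 (0.994) and Aldh2 (0.991), which were likewise lower in tumor, Flna at 422 and 296 FPKM in Ly6C and Ly6G spleen and at 96.5 and 94.3 in tumor. Adora2b was most like the mechanosensitive channel gene Piezo1 (0.988), then Stxbp6 (0.986) and Trio (0.984). Piezo1 averaged 3.62 FPKM in Ly6G spleen, 13.6 in Ly6C spleen, 20.6 in Ly6C tumor and 23.9 in Ly6G tumor, the order in which Adora2b stood. Nt5e was most like Il1f9 (0.976), Prok2 (0.975) and Ccr1 (0.973), and Entpd1 like Upp1 (0.965), an enzyme of uridine breakdown, Soat2 (0.949) and Ppp1r3b (0.943). P2ry2 was most like the endotoxin co-receptor Cd14 (0.951), at 1424 FPKM in Ly6G tumor and 174.2 to 455.1 elsewhere, then Basp1 (0.943) and Por (0.939). P2rx7 was most like Zeb2 (0.950), Rxra (0.943) and Stard9 (0.938). The weakest matches were those of Adora2a, with Cds2 (0.899), S1pr3 (0.894) and Cd36 (0.853), and of P2rx4, with Fyn (0.879), Rtl8a (0.870) and Commd4 (0.868), the members that did not pass in any comparison.

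By level, Ada and Entpd1 led the 8 genes in spleen. In Ly6C spleen Ada stood above Entpd1, at 38.8 ± 9.03 and 9.71 ± 1.95 FPKM, with no overlap of the libraries. In Ly6G spleen Entpd1 and Ada were neighbours that overlapped, at 26.3 ± 4.16 and 25.0 ± 3.45. In Ly6C tumor Entpd1 (9.15 ± 3.86), Ada (6.85 ± 0.418) and Adora2b (6.04 ± 0.768) formed the top and overlapped in part. In Ly6G tumor Entpd1 stood alone at 30.0 ± 12.1, followed by P2ry2 (8.31 ± 3.69), Adora2b (6.94 ± 0.878) and Ada (5.80 ± 0.814), whose libraries overlapped. Adora2a and Nt5e were at or below 1.74 FPKM in every library.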

How the data were processed

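The submitters sequenced total RNA from 12 mouse libraries with paired-end Illumina reads, per the labels. Reads were aligned with HISAT2 2.0.5 to GRCm38 and counted with featureCounts 1.5.0-p3, per the submitters' processing notes. The values the authors deposited are FPKM per gene in 1 matrix; the tool that made FPKM, its annotation and its filters are not given in the sources used. Fragment counts could not be recovered, since 22.3% to 24.7% of low values lay within 2% of whole steps, so depth is unknown and no count test was run.

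Symbols and coordinates came from GENCODE M21 (GRCm38) by Ensembl identifier, and promoters from RefSeq. The 570 loci without an Ensembl identifier held 0.463% to 1.04% of FPKM and were not tested. From the deposited FPKM, log2(FPKM + 1) was tested with limma 3.58.1 in R 4.3.3: genes reaching 1 FPKM in 3 or more libraries, 1 model of 4 group means, a mean-variance trend, 5 contrasts, 8 residual and 3.4 prior degrees of freedom, and Benjamini-Hochberg adjustment over 13610 genes in each contrast. The members and lists were chosen with earlier results of these data known. Every member is named. Of each other list, the text names the largest passing rise and fall in each comparison and genes averaging at least 10 FPKM. Slc29a2, Dpp4, Entpd4, Entpd7, Enpp2, Gja1, Rapgef3, Crem, Pde4a, Nr4a2 and Nr4a3 were added after their values were seen, and counts of named genes leave them out. Likeness is Pearson's r of log2(FPKM + 1) over 12 libraries among tested genes, with 3 named per member. The 26 alternatives covered pseudocount, filter, 5 scalings, the model, and libraries left out.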

Additional observations from a re-analysis of the deposited data

Results flagged for a closer look

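The change between spleen and tumor differed between Ly6C and Ly6G, by limma's test of that difference, for 1 of the 8 genes and for 10 of the other named pathway genes. Values are the log2 change in Ly6C minus that in Ly6G, with 3 libraries in each group. For Adora2b the difference was -1.67 ± 0.37 (adjusted p = 0.00970), and Adora2b passed under 24 of 25 alternatives. All 3 tumor libraries of each label were above all 3 Ly6G spleen libraries, and 1 Ly6C spleen library overlapped tumor.

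Nr4a1 had a difference of -2.91 (adjusted p = 0.00645), falling in Ly6C (rising after the pan-leukocyte rescaling) and rising in Ly6G, and Nr4a1 passed under all 25 alternatives. For the anion channel subunit Lrrc8a the difference was -0.72 (adjusted p = 0.00426), and for the necroptosis effector Mlkl it was -0.93 (adjusted p = 0.00981). After the pan-leukocyte rescaling Adora2b, Lrrc8a and Mlkl stood at 0.03, 0.37 and 0.48, and none of these 3 passed. The clock gene Per1 differed by -1.71 (adjusted p = 0.00521), and by -0.59 (adjusted p = 0.349) after that rescaling, and Entpd5 by -0.60 (adjusted p = 0.0104).

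Of the rest, Xdh differed by -0.84 (adjusted p = 0.0307), P2ry1 by -0.81 (adjusted p = 0.0353), P2ry10 by 0.69 (adjusted p = 0.0209), Acpp by -0.99 (adjusted p = 0.0486) and Il1b by 1.67 (adjusted p = 0.04996). Acpp lost its call under 17 alternatives, P2ry1 under 16, Il1b under 14, Xdh under 9 and P2ry10 under 5. No other sample or group value was singled out, since groups of 3 were not tested for outlying libraries.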

How the results depend on the processing

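Of 1012 values of the 8 genes under 26 alternatives, 878 kept direction and side of the threshold, 45 lost the call, 27 gained it and 62 reversed; of 1232 values of the other named genes, 1091 kept both, 134 lost the call and 7 reversed. The cause of these shifts was not tested, except that the filter at 5 FPKM tested fewer members.

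The count of members higher in Ly6C tumor (1) became 0 without S100a8 and S100a9 in the sum, under quantile normalization, with only the 2 groups compared and without both libraries of highest mitochondrial share, 8 after the pan-leukocyte rescaling, and 2 with the replicate block. The count lower there (2) became 1 at 5 FPKM, 5 under quantile normalization and 0 after the rescaling. In Ly6G, 3 higher became 7 after the rescaling, and 2 lower became 1 at 5 FPKM and on the TPM scale, 4 under median-of-ratios factors and quantile normalization, and 0 after the rescaling. In spleen, 3 higher in Ly6C became 1 under median-of-ratios, quantile and 2 groups and 0 after the rescaling, and 1 lower became 2 under median-of-ratios and quantile. In tumor, 0 higher became 3 after the rescaling, and 2 lower became 0 after it and without both high-mitochondrial libraries and 1 with 2 groups. For the difference of tissue effects, 1 lower became 3 on the TPM scale and with array weights, 2 without S100a8 and S100a9 and 0 after the rescaling. Leaving out 1 library gave 0 to 2 higher in Ly6C tumor, 1 to 3 higher and 1 to 2 lower in spleen, 0 to 3 lower in tumor and 1 to 2 lower for the difference.

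Counts over all genes moved by more than 1.5 times as follows. In Ly6C, 6289 higher and 4154 lower in tumor became 12349 and 511 after the pan-leukocyte rescaling and 3926 and 2768 at 5 FPKM. In Ly6G, 7010 higher and 3357 lower became 12097 and 543 after the rescaling, with 4320 higher at 5 FPKM and 5120 lower under quantile. In spleen, 3002 higher and 1169 lower became 5380 and 567 on the TPM scale, 1914 and 2147 under median-of-ratios, 140 and 95 after the rescaling and 1838 and 748 with 2 groups, with 1931 higher under quantile. In tumor, 1184 lower became 181 after the rescaling and 251 without both high-mitochondrial libraries, and 790 higher became 9862 and 9, and also 131 when S100a8 and S100a9 are out of the sum, 108 on the TPM scale, 1251 under median-of-ratios, 1224 under quantile, 1404 with 2 groups, 1730 with array weights, 1239 at pseudocount 5 and 456 with no filter; leaving out 1 tumor library gave 79 (Ly6C 3) to 349 (Ly6G 1) higher. For the difference of tissue effects, 820 higher and 2152 lower became 472 and 3680 without S100a8 and S100a9, 275 and 4520 on the TPM scale, 1775 and 1361 under median-of-ratios, 2403 and 53 after the rescaling and 290 and 1127 without both high-mitochondrial libraries, with 1607 higher under quantile and 1433 with array weights.

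Whether replicate numbers pair the samples is not stated, and correlations of deviations cannot settle it. Same-numbered libraries' deviations had a median r of 0.02 (-0.36 to 0.28, 5 of 18 pairs over 0.1). Those of other numbers had a median of -0.02 (-0.39 to 0.43, 7 of 36 pairs over 0.1). The replicate block moved P2ry2 in Ly6C past the threshold (adjusted p = 0.0338).

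After the pan-leukocyte rescaling, reversed changes between tissues in Ly6C were Entpd1 3.23, Nt5e 0.98, Ada 1.22, Adora2a 1.39, P2rx4 2.39, P2rx7 2.01, Nr4a1 2.14 and Pycard 0.59, and in Ly6G Nt5e 0.82, Ada 0.55, Adora2a 0.84 and Prkar1a 2.10. In tumor, Ly6C minus Ly6G became Adora2a 0.48, Adora2b 0.88, P2rx4 0.82, P2rx7 0.60 and Lrrc8a 0.63. The difference of tissue effects became Entpd1 0.56, Nt5e 0.16, Ada 0.67, Adora2b 0.029, P2rx4 0.71, P2rx7 0.22, Lrrc8a 0.37, Xdh 0.21 and Mlkl 0.48.

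Other reversals were of changes that had not passed. Entpd1 in Ly6G became -0.0012 without S100a8 and S100a9, -0.39 under median-of-ratios, -0.078 under quantile and -0.057 without both high-mitochondrial libraries, and P2rx4 in Ly6G -0.071, -0.35, -0.57 and -0.059, and -0.016 with array weights. P2rx7 in Ly6C became 0.046 with array weights. In spleen P2rx4 became -0.045 under median-of-ratios and -0.059 under quantile. In tumor Adora2a became 0.0040 under quantile and 0.045 without both high-mitochondrial libraries. Differences of tissue effects became -0.18 (TPM scale) and -0.081 (without S100a8 and S100a9) for Adora2a, 0.0033 (median-of-ratios) for Entpd1, 0.14 (median-of-ratios), 0.28 (quantile) and 0.012 (pseudocount 5) for Nt5e, and 0.0063 (quantile) for P2rx4.

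Leaving out 1 library gave ranges across 0 for Entpd1 in Ly6C (-0.36 to 0.22) and Ly6G (-0.12 to 0.48), P2rx7 in Ly6C (-0.39 to 0.20), P2rx4 in Ly6G (-0.075 to 0.080) and spleen (-0.056 to 0.26), Adora2a in spleen (-0.36 to 0.0055) and tumor (-0.29 to 0.049), and the differences of Entpd1 (-0.63 to 0.12), Nt5e (-0.16 to 0.037) and Adora2a (-0.15 to 0.22).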
